A study of Homo sapiens with 6 samples.

Results

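The WNT ligands, their receptors, their secreted antagonists and the core proteins that carry the signal to the nucleus were examined in a pair of cybrids. The members were chosen by gene symbol from a list of 47, taking the probe sets that the platform table maps to 1 member alone. This gave 43 genes with 106 probe sets, of 19775 genes and 41091 probe sets in all. WNT3, FZD8, TCF7 and PORCN were not analysed here.

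A cybrid joins the nucleus of one cell to the mitochondria of another. Both cybrids had as nuclear partner the 143B osteosarcoma line in its form without mitochondrial DNA. The 10A/143B cybrids carried mitochondria of MCF10A, a non-tumorigenic breast epithelial line, and the 468/143B cybrids those of MDA-MB-468, a breast carcinoma line. Each was measured on 3 arrays. Donor cells of both were enucleated with actinomycin-D, and fusions were kept by culture with bromodeoxyuridine and no uridine. The labels' protocols do not say whether a cybrid is 1 clone or a pool of fusions, so a difference between the groups cannot be told apart from one between 2 cell isolates. Cybrids of 143B with its own mitochondria, which the protocols also describe, were not analysed here. The cell line tag of each array names the mitochondrial donor, whereas its source name and protocol name the cybrid. The series' title asks whether mitochondria of non-cancerous cells restrain oncogenic pathways of metastatic cells.

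WNT proteins are secreted lipid-modified ligands that bind frizzled receptors. Together with the co-receptor LRP5 or LRP6, a frizzled recruits Dishevelled, which halts a complex of AXIN, APC and GSK3 that otherwise marks beta-catenin for destruction. Beta-catenin then binds TCF and LEF factors at target genes. Other branches, through ROR and RYK receptors, planar polarity proteins or calcium, do not need beta-catenin. In osteoblasts and tumours of bone, WNT signals are known for their part in differentiation and growth.

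The nuclear partner was checked against markers. VIM, a mesenchymal filament protein, was at 8687 ± 438 in 10A/143B and 8418 ± 611 in 468/143B (intensity, SD, n = 3 each). KRT5, a basal epithelial keratin of MCF10A, stood at the lowest deposited value, 1, on all 10A/143B arrays. Of 12 measured epithelial markers, 0 rose and 4 fell, and their summed intensity was 5041 to 5540 in 10A/143B against 6473 to 7062 in 468/143B. Most of that sum was KRT18, with 4908 ± 224 in 10A/143B and 6198 ± 261 in 468/143B. KRT8 fell (−1.05 ± 0.13 SE on the log2 scale), and EPCAM (0.43 ± 0.17) and CDH1 (−0.40 ± 0.23) did not pass. Of 12 mesenchymal and osteoblast markers, 2 rose and 3 fell, with sums of 11801 to 12560 in 10A/143B against 12723 to 14195 in 468/143B. Among these, RUNX2, an osteoblast transcription factor, fell (−0.23 ± 0.07, adjusted p 0.0271, 0.215 in the averaged fit described below), a call also lost without any 1 array other than replicate 1 of 10A/143B. Of 10 fibroblast and smooth muscle markers, 1 rose and 4 fell, and their sums were 1666 to 1882 in 10A/143B against 1895 to 2253 in 468/143B. Of 8 blood and endothelial markers 1 rose, with sums of 210.3 to 243 in 10A/143B against 146 to 220 in 468/143B. COL1A2, KRT5, CLDN4, ESRP1 and LUM did not pass an intensity of 16 on any array, and neither did CD3D, LYZ, CDH5 and KDR. In the test described below 35.6% of all genes passed, of which 19.9% rose and 15.7% fell. The share was 33.3% of epithelial and 41.7% of mesenchymal and osteoblast markers. It was 50% of fibroblast and smooth muscle and 12.5% of blood and endothelial markers. The part of these markers in the results below was not tested. In such bulk RNA, fewer cells with a transcript and less of it per cell cannot be told apart. Replicates 2 and 3 were near duplicates in both groups: over the genes brighter than 8 on the log2 scale, the SD of their difference was 0.075 for 10A/143B and 0.089 for 468/143B, whereas replicate 1 differed from them with SDs of 0.23 to 0.27. A second fit, called the averaged fit, therefore took the mean of replicates 2 and 3 as 1 sample, which leaves 2 against 2.

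Of the 43 genes, 18 passed the test between the cybrids: 10 rose and 8 fell in 10A/143B. The largest rise was that of FZD3 and the largest fall that of FZD2, both frizzled receptors. The test was limma on log2(intensity + 16) over all genes, with a Benjamini-Hochberg adjusted p under 0.05. All differences are 10A/143B minus 468/143B on that log2 scale, with the SE of the fit and 3 arrays per group. The share, 41.9%, stood beside 35.6% of all genes past the threshold, of which 19.9% rose and 15.7% fell, so the members as a set were near the background. With the averaged fit 9 members passed, 20.9% of them, beside 22.7% of all genes, of which 13.8% rose and 8.9% fell. These 9, all among the 18, were FZD1, FZD3, FZD6, LRP6, DVL1, APC and ZNRF3, which rose, and FZD2 and FZD7, which fell. The median difference over the members was −0.03, and over all genes −0.02. Bringing the arrays to a common median moved both medians, to −0.14 and −0.12, and turned the balance over all genes, since 3322 rose and 3938 fell, in place of 3929 and 3113. Members then numbered 9 higher and 9 lower. With quantile normalization 3450 genes rose and 3921 fell.

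By role, 8 of the 18 were receptors. Of 13 receptors and co-receptors, 6 rose and 2 fell. Of 10 ligands, 0 rose and 1 fell. Of 5 secreted antagonists, 0 rose and 1 fell. Among the 3 Dishevelled proteins 1 rose and 1 fell, among 5 genes of the destruction complex 1 rose and 2 fell, and among 4 nuclear genes 1 rose and 1 fell. Of the 2 ligases that remove receptors 1 rose, and WLS did not pass. Whether these shares differ between roles was not tested. In all 18 members past the threshold the arrays of the cybrids were fully separate, and the difference had 1 direction in replicate 1 and in replicates 2 and 3. Passing the test with 3 arrays per group makes both likely beforehand, so neither adds support to the calls. The share over all genes past the threshold was not counted. Brightness matters here: 8 members had both group means below the median probe set of the array (5.24 on the log2 scale), and 0 of these passed, against 18 of the other 35.

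**Figure D1:**
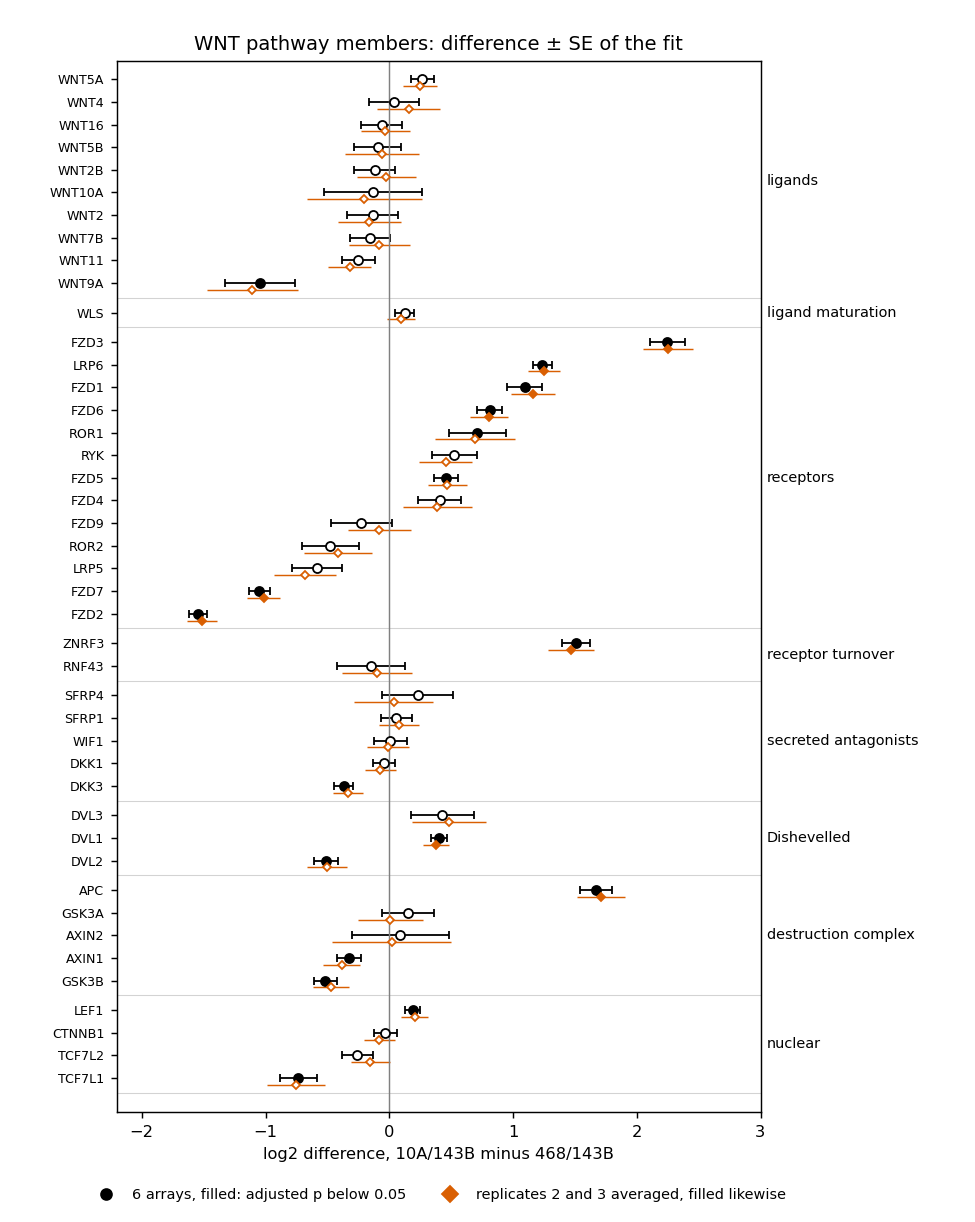
Log2 difference, 10A/143B minus 468/143B, of the 43 members by role (x axis, log2 of intensity + 16). Black circles with SE bars are the fit on 6 arrays, filled where the adjusted p is below 0.05, and orange diamonds are the averaged fit. FZD3 lies farthest to the right at 2.25 and FZD2 farthest to the left at −1.55.

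The frizzled receptors moved both ways. Of 8 measured, 4 rose and 2 fell, and 3 and 2 of these passed in the averaged fit. FZD3, a receptor known for planar polarity and axon guidance, had intensities of 393, 324 and 324 in 10A/143B, against 70.0, 63.1 and 48.8 in 468/143B. Every 10A/143B array was far above every 468/143B array, a difference of 2.25 ± 0.14 or 4.75-fold (adjusted p 1.11e-05). FZD3 is covered by 3 more probe sets, of which those at 1.43 and 1.51 rose as well and the one at 0.55 did not pass. FZD1, a receptor of the beta-catenin branch, had 724, 523 and 491 in 10A/143B, against 272, 242 and 263 in 468/143B. The groups were apart by 1.09 ± 0.14, or 2.13-fold (adjusted p 3.28e-04), and replicate 1 of 10A/143B was the highest array. Of the dimmer FZD1 probe sets, the one at −0.17 did not pass. The one at 0.77 rose on 6 arrays but not in the averaged fit (adjusted p 0.0648), with both group means below the median probe set. FZD6, which acts with FZD3 in planar polarity in the mouse, had 300.2, 292 and 284 in 10A/143B, against 168, 170.1 and 142 in 468/143B (0.81 ± 0.10, adjusted p 2.83e-04). It has 1 probe set, and its 10A/143B arrays lay close together.

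FZD2 and FZD7 stood the other way. FZD2, a receptor that WNT5A can bind, had 304, 280.1 and 282 in 10A/143B, against 832, 917 and 879 in 468/143B. All 10A/143B arrays were lower, with a difference of −1.55 ± 0.07 or 2.92-fold (adjusted p 3.16e-06). Its other, dimmer probe set gave the opposite sign, with 36.5, 65.8 and 56.1 in 10A/143B, against 12.9, 14.8 and 18.6 in 468/143B (1.11, adjusted p 0.00506 among all probe sets, 0.0656 in the averaged fit). The mean of both probe sets differed by −0.22 (adjusted p 0.136), so the direction for FZD2 rests on the brighter one. FZD7, a receptor active in stem cells and many tumours, had 311, 307 and 326 in 10A/143B, against 600.5, 714 and 695 in 468/143B. It fell by 1.05 on the log2 scale (SE 0.08, adjusted p 2.78e-05), and its other probe set fell too (−1.18).

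The remaining frizzled genes differed less. FZD5, a receptor known from the gut lining and the eye, had 258, 228 and 244 in 10A/143B, against 177, 167 and 174 in 468/143B. Its rise of 0.46 ± 0.09 passed on 6 arrays (adjusted p 0.00493) but not in the averaged fit (adjusted p 0.0737), and its other, dim probe set differed by 0.14 without passing. FZD4, the receptor of Norrin in retinal vessels, had 66.7, 92.4 and 85.0 in 10A/143B, against 49.5, 58.9 and 63.1 in 468/143B. These did not overlap, yet the difference of 0.41 ± 0.18 did not pass (adjusted p 0.112). Without replicate 1 of 10A/143B it was 0.52 (adjusted p 0.0303). FZD9 was below 20 on every array and did not pass (−0.23, adjusted p 0.545).

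**Figure D2:**
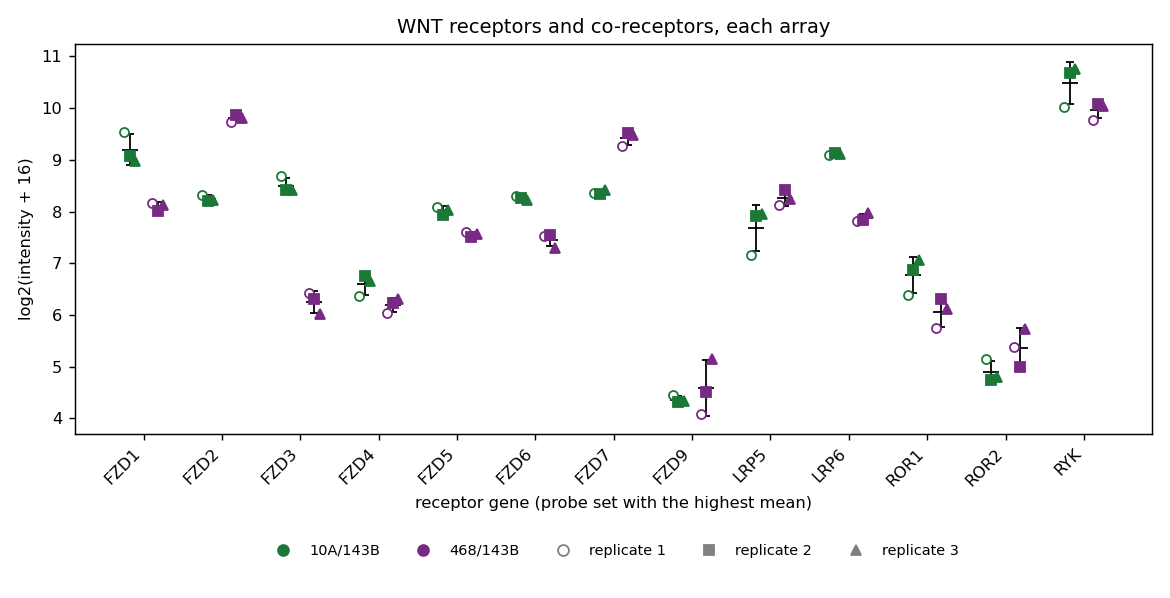
Level of the 13 receptors on each array (y axis, log2 of intensity + 16), 10A/143B in green at left and 468/143B in purple at right of each gene. Replicate 1 is an open circle, replicate 2 a square and replicate 3 a triangle, and bars are the mean ± SD. The 10A/143B arrays lie above for FZD1, FZD3, FZD6 and LRP6 and below for FZD2 and FZD7.

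Among the co-receptors, LRP6, which is phosphorylated when WNT binds and holds AXIN at the membrane, had 530.1, 541 and 537 in 10A/143B, against 208, 214 and 234 in 468/143B. The 10A/143B arrays were higher by 1.24 ± 0.08, or 2.36-fold (adjusted p 9.75e-06). The other 2 probe sets of LRP6 differed by 0.05 and −0.03 and did not pass, so the rise was seen by 1 probe set of 3. LRP5, its close relative and a known determinant of bone mass, had 127, 226 and 231 in 10A/143B, against 263, 326 and 286 in 468/143B. All 10A/143B arrays were lower, but the difference of −0.59 ± 0.20 missed the threshold (adjusted p 0.055, 0.0991 in the averaged fit) and passed with the replicate number as a block (adjusted p 0.0114). Replicate 1 differed by −0.96 and replicates 2 and 3 by −0.40. Without replicate 1 of 10A/143B the value was −0.33 (adjusted p 0.036) and without replicate 3 of it −0.72 (adjusted p 0.04). LRP5 also passed with medians made equal (−0.69, adjusted p 0.0124) and with quantile normalization (−0.70, adjusted p 0.0226).

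The receptors of the branches outside beta-catenin gave weaker results. ROR1, a pseudokinase that binds WNT5A, had 67.2, 100.4 and 117.8 in 10A/143B, against 37.8, 63.1 and 53.4 in 468/143B. Its rise of 0.71 ± 0.23 lay just inside the threshold (adjusted p 0.0419) and was lost in the averaged fit (adjusted p 0.189), with quantile normalization (adjusted p 0.0669), and without any 1 array other than replicate 1 of 10A/143B. The other 2 ROR1 probe sets differed by 0.04 and 0.51 and did not pass, and the mean of all 3 was 0.42 (adjusted p 0.12). ROR2, needed for cartilage growth, had 19.3, 10.7 and 11.8 in 10A/143B, against 25.6, 15.8 and 37.3 in 468/143B, and the groups overlapped (−0.48 ± 0.23, adjusted p 0.159). RYK, a receptor with a WNT-binding domain of the WIF type, had 1024, 1629 and 1722 in 10A/143B, against 861, 1060 and 1038 in 468/143B. Replicate 1 of 10A/143B lay within the 468/143B arrays, and the difference of 0.53 ± 0.18 did not pass (adjusted p 0.0534, 0.191 in the averaged fit). It passed with the replicate number as a block (adjusted p 0.0033) and without replicate 1 of 10A/143B (0.76, adjusted p 5.16e-04), among other settings. The other 2 RYK probe sets differed by −0.01 and 0.02.

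Receptor numbers at the surface are set by ZNRF3 and RNF43, ubiquitin ligases that remove frizzled and LRP6. ZNRF3 had 251, 290.0 and 269 in 10A/143B, against 88.0, 88.6 and 77.2 in 468/143B. It rose by 1.51 ± 0.11, or 2.84-fold (adjusted p 2.11e-05, 0.00132 in the averaged fit). RNF43 was below 20 on every array, and its values overlapped (−0.15 ± 0.27, adjusted p 0.734). LGR4, an R-spondin receptor that holds these ligases off, averaged 252 ± 18.2 in 10A/143B and 112 ± 16.8 in 468/143B (1.07 ± 0.13, adjusted p 2.32e-04), but its other probe sets differed by −0.31 and −0.08 and did not pass.

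Of the ligands, WNT5A, the best known ligand of the branches outside beta-catenin, was bright in both cybrids. Its brighter probe set had 458, 545 and 549 in 10A/143B, against 402, 465 and 413 in 468/143B, which overlap. This difference of 0.27 ± 0.10 did not pass (adjusted p 0.0589, or 0.0232 with the replicate number as a block). Without replicate 1 of 10A/143B it was 0.35 (adjusted p 0.0088). The other WNT5A probe set had 236, 202 and 205 in 10A/143B, against 114, 133 and 121 in 468/143B. It rose by 0.73 ± 0.11 among all probe sets (adjusted p 0.00136, and 0.024 in the averaged fit), and 31.0% of all probe sets passed that test.

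WNT9A, a ligand of joint formation, was dim and the only ligand past the threshold. It had 15.0, 4.47 and 7.57 in 10A/143B, against 59.7, 22.8 and 28.8 in 468/143B. No array overlapped, and WNT9A fell by 1.05 on the log2 scale (SE 0.28, adjusted p 0.0194). The call was lost in the averaged fit (adjusted p 0.0676) and without replicate 2 or replicate 3 of 10A/143B (adjusted p 0.0827 and 0.0645). Because its values are near the added 16, the size depends on that offset: it was −1.95 with an offset of 1 and −0.45 with an offset of 64. The other WNT9A probe set had 1, 1 and 1 in 10A/143B, against 2.58, 1 and 1 in 468/143B. It differed by −0.04 and did not pass.

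The remaining 8 ligands did not pass. WNT2B had 120.3, 111 and 107 in 10A/143B, against 97.7, 153 and 125 in 468/143B (−0.12 ± 0.16), and its dimmer probe sets at 0.52 and 0.61 did not pass either. WNT7B had 96.3, 91.8 and 90.5 in 10A/143B, against 85.6, 128 and 105 in 468/143B (−0.15 ± 0.16). WNT5B was between 36.3 and 54.2 on all arrays (−0.09 ± 0.19). WNT10A ran from 7.84 to 45.6 in 10A/143B and from 15.7 to 48.5 in 468/143B, lowest in replicate 1 of both (−0.13 ± 0.39). WNT2, WNT4, WNT11 and WNT16 were below the median probe set in both groups, where neither presence nor absence could be told without detection calls. WLS, which carries lipid-modified WNT to the surface, had 680.3, 699 and 648 in 10A/143B, against 676, 564 and 622 in 468/143B. These overlapped (0.12 ± 0.08, adjusted p 0.288), and both other WLS probe sets were near 0 (0.00 and 0.04).

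Secreted antagonists were split between bright and very dim genes. DKK1, which blocks LRP5 and LRP6, had 749.6, 929 and 891 in 10A/143B, against 843, 867 and 929 in 468/143B. The groups overlapped, with a difference of −0.04 ± 0.09 (adjusted p 0.766). SFRP1, a decoy with a frizzled-like domain, had 468, 549 and 576 in 10A/143B, against 425, 545 and 564 in 468/143B by its brightest probe set (0.06 ± 0.12, adjusted p 0.767). A second SFRP1 probe set had 171, 182 and 181 in 10A/143B, against 108, 501 and 491 in 468/143B, where replicate 1 stood apart from the near duplicates, and it did not pass (−0.72 ± 0.49). A further one behaved likewise (−0.88 ± 0.36).

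DKK3, a divergent Dickkopf, was the only antagonist past the threshold. Its brightest probe set had 622, 537 and 534 in 10A/143B, against 734, 719 and 739 in 468/143B, a difference of −0.37 ± 0.08 (adjusted p 0.00494, 0.0869 in the averaged fit). A second one had 231, 239 and 241 in 10A/143B, against 605, 592 and 572 in 468/143B. It fell by 1.26 on the log2 scale, also in the averaged fit (adjusted p 0.00162), and another fell by 0.86. The other 3 DKK3 probe sets did not pass. SFRP4 and WIF1, which bind WNT ligands, were at or below 20.3 on every array and did not pass (0.23 ± 0.29 and 0.01 ± 0.13).

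Dishevelled passes the signal from the receptor to the destruction complex. DVL1 had 936, 1017 and 949 in 10A/143B, against 749.6, 714 and 719 in 468/143B. It rose by 0.40 ± 0.06 (adjusted p 9.77e-04, 0.0342 in the averaged fit). DVL2 had 168, 186 and 176 in 10A/143B, against 241, 271 and 265 in 468/143B. It fell by 0.51 on the log2 scale (SE 0.10, adjusted p 0.00285, 0.0594 in the averaged fit), and its other probe set, at −0.32, did not pass. DVL3 had 116, 152 and 164 in 10A/143B, against 68.1, 154 and 98.4 in 468/143B, with overlap (0.43 ± 0.25, adjusted p 0.238). Without replicate 2 of 468/143B it was 0.70 (adjusted p 0.047).

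Within the destruction complex, APC, the scaffold lost in most colorectal cancers, had 286, 258 and 241 in 10A/143B, against 68.6, 81.6 and 64 in 468/143B. All 10A/143B arrays were higher, by 1.67 ± 0.13 or 3.18-fold (adjusted p 2.36e-05). Probe sets at 1.88 and 0.85 rose as well, while those at 0.62 and 0.26 did not pass. The last of these is the only APC probe set whose name does not mark it as one that may bind related transcripts. AXIN1, the scaffold that limits the complex, had 244, 260 and 271 in 10A/143B, against 367, 322 and 296 in 468/143B. It fell by 0.33 on the log2 scale (SE 0.10, adjusted p 0.0322), without passing in the averaged fit (adjusted p 0.116) or without any 1 array other than replicate 3 of 468/143B. AXIN2, both a scaffold and a feedback target of beta-catenin, had 25.1, 80.4 and 88.0 in 10A/143B, against 30.9, 61.8 and 77.7 in 468/143B. Replicate 1 was lowest in both groups, and AXIN2 did not pass (0.09 ± 0.39, adjusted p 0.891).

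GSK3B, a kinase that phosphorylates beta-catenin, was measured in opposite ways by its probe sets. The brightest had 292, 294 and 290.0 in 10A/143B, against 372, 440 and 468 in 468/143B, a difference of −0.52 ± 0.10 (adjusted p 0.0027, 0.0521 in the averaged fit). Another had 388, 440 and 446 in 10A/143B, against 102.5, 104.7 and 94.4 in 468/143B, a rise of 1.92 ± 0.10 (adjusted p 9.40e-06, 0.00113 in the averaged fit). Probe sets at 2.03 and 0.81 rose too, and the mean over all 5 was 0.77 (adjusted p 6.44e-04). No direction is therefore given for GSK3B as a gene. GSK3A, its paralogue, had 174, 333 and 320 in 10A/143B, against 237, 239 and 236 in 468/143B. Replicate 1 was below and replicates 2 and 3 above 468/143B (−0.42 and 0.43), and the 6 arrays gave 0.15 ± 0.21 (adjusted p 0.645). Without replicate 1 of 10A/143B the difference was 0.43 (adjusted p 0.00215).

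CTNNB1, which encodes beta-catenin, was bright in both cybrids, with 1370, 1710 and 1746 in 10A/143B, against 1596, 1618 and 1698 in 468/143B. The arrays overlapped, and the difference was −0.03 ± 0.09 (adjusted p 0.828). A dimmer CTNNB1 probe set had 99.7, 88.6 and 98.4 in 10A/143B, against 20.3, 25.5 and 14.5 in 468/143B, and rose by 1.64 ± 0.18 (adjusted p 2.27e-04, 0.00661 in the averaged fit). The remaining one, at 0.26, did not pass. Arrays of messenger RNA do not measure the stability or the place of the protein.

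Of the DNA-binding partners of beta-catenin, TCF7L1, mainly a repressor, had 67.6, 82.1 and 94.4 in 10A/143B, against 131, 149 and 156 in 468/143B. It fell by 0.74 on the log2 scale (SE 0.15, adjusted p 0.00487, 0.0563 in the averaged fit). TCF7L2, the main factor of the gut, had 765, 685 and 630.3 in 10A/143B, against 680.3, 910.2 and 923 in 468/143B. Replicate 1 differed by 0.17 and replicates 2 and 3 by −0.47, and the 6 arrays did not pass (−0.26 ± 0.12, adjusted p 0.154). Without replicate 1 of 468/143B it was −0.40 (adjusted p 0.0126). Its 7 probe sets ran from −1.11 to 0.79, and 0 of them passed among all probe sets in limma. LEF1, known for its part in hair and bone formation, had 685, 676 and 676 in 10A/143B, against 572, 605 and 605 in 468/143B. The rise of 0.19 ± 0.06 passed narrowly (adjusted p 0.0405) but not in the averaged fit (adjusted p 0.25), with medians made equal (0.09), with quantile normalization (0.13) or without any 1 array other than replicate 1 of 10A/143B. A dimmer LEF1 probe set fell by 0.68 on the log2 scale (adjusted p 0.0162).

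Several WNT genes are themselves targets of beta-catenin in other cells, so the 250 bases upstream of their starts were searched for the letters that TCF and LEF factors are known to bind. Of the 43 members, 32 had an upstream entry in RefSeq (GRCh38.p14). The search took CTTTGAA or CTTTGAT, and CTTTGTA or CTTTGTT, on both strands. Of the 32 members, 1 (3.12%) held a match, DKK1, against 9.84% of the 21490 upstream regions of measured genes and 12% of all 35116. For each member only the first listed region was searched, whereas these backgrounds count every region, so a gene can enter them more than once. Members' upstream regions were 70.4% G and C at the median, and those of measured genes 62%. Below are DKK1 for its 2 matches, which do not overlap, in capitals with first bases 95 and 76 before the start, and the members with an entry that had the largest rise and the largest fall among those with both group means above an intensity of 32. DKK1 is at chr10:52314031-52314280, APC at chr5:112707248-112707497 and TCF7L1 at chr2:85133142-85133391, all on the plus strand.
DKK1: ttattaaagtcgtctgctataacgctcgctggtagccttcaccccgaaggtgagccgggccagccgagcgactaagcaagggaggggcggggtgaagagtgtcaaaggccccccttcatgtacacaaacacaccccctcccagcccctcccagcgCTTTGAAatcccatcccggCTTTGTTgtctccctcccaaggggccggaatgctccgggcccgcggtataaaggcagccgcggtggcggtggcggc
APC: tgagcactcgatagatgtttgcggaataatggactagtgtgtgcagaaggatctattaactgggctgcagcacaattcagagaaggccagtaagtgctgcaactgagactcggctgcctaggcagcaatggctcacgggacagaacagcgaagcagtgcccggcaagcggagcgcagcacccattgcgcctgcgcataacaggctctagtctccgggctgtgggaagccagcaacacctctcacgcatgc
TCF7L1: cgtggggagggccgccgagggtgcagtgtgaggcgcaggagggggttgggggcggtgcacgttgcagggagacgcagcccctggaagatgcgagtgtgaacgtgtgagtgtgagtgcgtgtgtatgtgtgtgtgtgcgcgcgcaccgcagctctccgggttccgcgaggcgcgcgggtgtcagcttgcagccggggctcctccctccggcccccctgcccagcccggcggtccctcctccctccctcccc

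The gene with the match, DKK1, did not pass the test between the cybrids, whereas APC and TCF7L1, with no match in these windows, passed in opposite directions. A match is a description of letters and says nothing of binding, and a window without one says nothing of the factor.

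Because 31 members had several probe sets, agreement between them was counted. For 5 members (16.1%), namely FZD1, FZD3, FZD7, APC and DKK3, at least 2 probe sets passed and all that passed had 1 direction. Over all 10523 genes with several probe sets this share was 21.7%. For FZD2 and GSK3B, 2 members (6.45%), probe sets passed in both directions, beside 680 genes (6.46%) in all. In the averaged fit 0 members had calls both ways in limma, beside 2.02% of all such genes. GSK3B then stood among the members with calls 1 way, upward, and FZD1 no longer did.

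**Figure D3:**
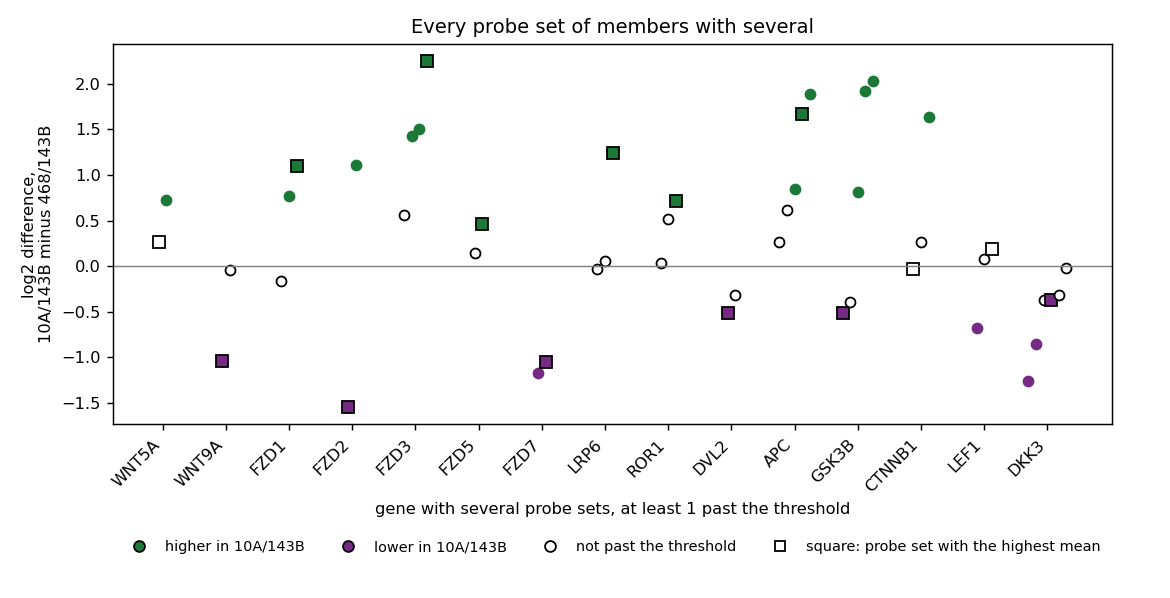
Log2 difference, 10A/143B minus 468/143B (y axis, log2 of intensity + 16), of every probe set of the 15 members (x axis) with several probe sets of which at least 1 passed. Squares are the probe set with the highest mean, green marks higher, purple lower and white not past the threshold. GSK3B and FZD2 have coloured points above and below 0, and those of FZD3 lie above 0.

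Chromosomal surroundings were described as well. For each member the median difference of its 20 nearest measured genes was taken. It was positive for 9 of the 10 members that rose, with a median of 0.16 (−0.09 to 0.44), and for 3 of the 8 that fell, with a median of −0.12 (−0.34 to 0.09). Among the 25 members that did not pass it was positive for 15, with a median of 0.04 (−0.30 to 0.34). Around FZD6 the median was 0.44, and 9 neighbours rose and 0 fell in limma. Around AXIN1 it was −0.33, and 0 rose and 8 fell. Over all genes 19.9% rose and 15.7% fell. The part of neighbourhood in the members' differences was not tested. Longer genes were also higher: with genes put in 10 classes by length, the class median ran from −0.09 in the shortest to 0.16 in the longest. Members that rose had a median class of 8.5 and those that fell 6.5. Whether length plays a part was not tested.

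Outside the members, 140 measured genes of 7 WNT lists were counted in the same test, and 37 rose and 23 fell. Over all genes 35.6% passed, of which 19.9% rose and 15.7% fell. The share was 61.9% of cytoplasmic regulators, 50% of the calcium branch, 47.4% of nuclear partners and 45.2% of reported targets. It was 35% of planar polarity genes, 28.6% of modulators and 12.5% of further WNT and frizzled genes. In the averaged fit the lists ran from 0% to 33.3%, beside 22.7% of all genes, of which 13.8% rose and 8.9% fell. Whether the lists differ from all genes was not tested. Of 21 cytoplasmic regulators of beta-catenin, 11 rose and 2 fell, with a median of 0.26, and in the averaged fit 6 rose and 1 fell. Examples are TNKS, a tankyrase that marks AXIN for destruction, with 469 ± 25 in 10A/143B and 211 ± 14.2 in 468/143B (1.10 ± 0.09), and USP34, a ubiquitin protease of AXIN, with 2741 ± 393 in 10A/143B and 1315 ± 217 in 468/143B (1.05 ± 0.14). The other 3 probe sets of TNKS did not pass, whereas 5 of the 6 of USP34 rose. The casein kinase CSNK1G1 rose (1.50 ± 0.12) and CSNK1D fell (−0.89 ± 0.10), but each had another probe set past the threshold the other way.

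Of 20 genes on the planar polarity list, 7 (35%) rose and 0 fell, and in the averaged fit 6 rose. Over all genes 35.6% passed, of which 19.9% rose and 15.7% fell, so the share was near the background. The median of the list was 0.38, or 0.28 with medians made equal. CELSR2, a large adhesion receptor, averaged 180 ± 18.9 in 10A/143B and 60.4 ± 7.49 in 468/143B (1.36 ± 0.14), and SCRIB, a polarity scaffold, 364 ± 23.5 in 10A/143B and 172 ± 18.9 in 468/143B (1.02 ± 0.10). MAP3K7, a kinase that was put on this list, rose by 0.83 ± 0.10, and all 4 of its probe sets rose. The formin DAAM1 rose by 1.12 ± 0.15, but its 4 other probe sets (0.49, 0.19, 0.05 and −0.12) did not pass, and the mean of its probe sets differed by 0.34 without passing (adjusted p 0.083).

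Of 19 nuclear partners, 5 rose and 4 fell, and in the averaged fit 3 rose and 2 fell. TBL1XR1, an exchange factor at target genes, averaged 1393 ± 118 in 10A/143B and 527 ± 55.9 in 468/143B (1.38 ± 0.10). Its probe sets at 1.67 and 2.23 rose too, while those at 1.09, −0.20 and −0.19 did not pass. The related TBL1X rose by 0.84 ± 0.11. Of the other 5 TBL1X probe sets 1 rose (0.57) and 4 did not pass (−0.46 to 0.19), and the mean of its probe sets differed by 0.17 (adjusted p 0.53). TLE3, a co-repressor of TCF factors, averaged 197 ± 12.3 in 10A/143B and 475 ± 73.3 in 468/143B (−1.19 ± 0.12). Its probe set at −1.53 fell too, while those at −0.004 and 0.016 did not pass. The short family member TLE5 fell by 0.73 on the log2 scale (SE 0.12).

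Of 18 genes of the calcium branch, 6 rose and 3 fell, and in the averaged fit 4 rose and 0 fell in limma. On 6 arrays 10 genes of the list had an unadjusted limma p under 0.05, as had 8420 of all 19775 genes. PPP3CA, a calcineurin subunit, rose with all 3 probe sets (1.06 ± 0.11). PLCB4, a phospholipase, rose by 0.94 ± 0.26 without passing in the averaged fit (adjusted p 0.135) or without any 1 array other than replicate 1 of 10A/143B. The kinase PRKCA rose (0.76 ± 0.08) while its other probe sets at −1.83 and −1.13 fell, and NFATC1, a calcium-dependent factor, fell on 6 arrays (−0.67 ± 0.14, adjusted p 0.0591 in the averaged fit) while another of its probe sets rose by 1.51. Of 28 surface and secreted modulators, 2 rose and 6 fell, and in the averaged fit 1 rose and 3 fell. GPC4, a cell-surface glypican, averaged 148 ± 19.3 in 10A/143B and 336 ± 16.9 in 468/143B (−1.11 ± 0.11, both probe sets). TRABD2B, which cleaves WNT ligands, fell by 1.30 on the log2 scale (SE 0.19) with its 2 other probe sets at −0.16 and 0.55. RECK, a co-receptor of WNT7 ligands, fell on 6 arrays (−0.81 ± 0.15, adjusted p 0.0541 in the averaged fit) but had a probe set at 1.13 that rose. Of 8 further WNT and frizzled genes only WNT8B passed, dim at 3.86 ± 4.95 in 10A/143B and 23.5 ± 5.73 in 468/143B, and not in the averaged fit (adjusted p 0.0588).

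Reported target genes of beta-catenin also went both ways. Of 31 measured, 6 rose and 8 fell, with a median of −0.13, and in the averaged fit 5 rose and 4 fell. MYC, a growth regulator, averaged 117 ± 6.64 in 10A/143B and 606 ± 43.0 in 468/143B (−2.23 ± 0.09, adjusted p 2.52e-06). JAG1, a Notch ligand, averaged 323 ± 15.1 in 10A/143B and 923 ± 39.6 in 468/143B (−1.47 ± 0.07), and 4 of its 6 probe sets fell. ID2, an inhibitor of differentiation factors, fell by 1.36 on the log2 scale (SE 0.22), but its other probe set, at −0.27, did not pass. VEGFA, a vessel growth factor, averaged 1754 ± 14.1 in 10A/143B and 710 ± 27.2 in 468/143B (1.29 ± 0.06), and its 3 other probe sets did not pass.

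**Figure D4:**
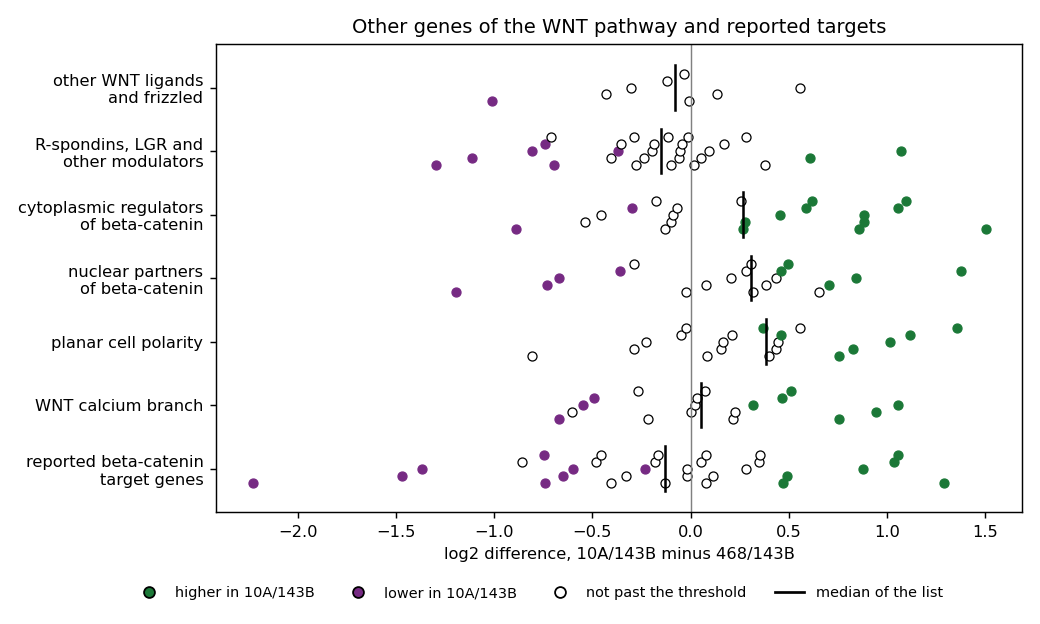
Log2 difference, 10A/143B minus 468/143B, of each measured gene in 7 WNT lists outside the members (x axis, log2 of intensity + 16), with the list's median as a bar and coloured points past the threshold. Planar polarity genes past the threshold all lie to the right, and MYC lies farthest to the left at −2.23.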

How the data were processed

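RNA of 3 arrays per cybrid, extracted in triplicate per the labels' protocols, was hybridised to an Affymetrix array with 54675 probe sets. The deposited values are intensities on a linear scale. How the authors summarised, background-corrected and scaled them is not given in the sources used here. Log2 of all values was a multiple of 0.01 (tolerance 1e-05), the lowest was 1, and array medians ran from 20.4 to 24.4. No detection calls were used, and precision is limited by how few arrays there are.

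Deposited intensities were taken as log2(intensity + 16) without further normalization, so folds of dim genes are understated. Of the array's probe sets, 41091 with 1 symbol each were used, and symbols were updated to RefSeq. For a gene with several, the one with the highest mean over the 6 arrays was taken. The test was limma 3.58.1 under R 4.3.3 (lmFit, eBayes with an intensity trend, Benjamini-Hochberg at 0.05 over 19775 genes). Single probe sets were adjusted over all 41091. The fit was tested on simulated data with independent noise on each array. That setting leaves out the near duplicate replicates, so it cannot check the error rate of these calls.

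Groups and replicate numbers come from the source names. Deviations from the group means correlated by 0.30, 0.22 and 0.23 between same-numbered arrays of the cybrids. They correlated by 0.27 and 0.22 between replicates 2 and 3 across groups, so these replicates did not pair by number. A fit with the replicate number as a block was also run. Nothing says that arrays came from separate cultures, so the spread behind the p-values is that of these arrays and may be technical.

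Members and lists were chosen with earlier results of these data known. Named are every member, up to 4 genes past the threshold per list, and fixed markers. Alternatives were other offsets, scalings, probe set rules, array weights, batch and replicate terms, and each array left out.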

Additional observations from a re-analysis of the deposited data

How the results depend on the processing

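The 9 members that passed in the averaged fit kept their sign under every setting that gave 1 value per gene. With every probe set tested separately, FZD2 had one at 1.11, FZD1 one at −0.17 and LRP6 one at −0.03. FZD6, DVL1 and ZNRF3 have 1 probe set each, so the probe set rules could not turn them. Without each array in turn, FZD3 ranged from 2.13 to 2.34, LRP6 from 1.20 to 1.28 and FZD2 from −1.58 to −1.52. FZD2 lost its call with the mean of probe sets (−0.22) and APC without probe sets that may cross-react (0.26, adjusted p 0.541). Counts of members past the threshold were 14 to 22, of pathway genes 47 to 72 and of all genes 5641 to 8061 when 1 array was left out. With replicates 2 and 3 averaged, 9 members, 35 pathway genes and 4483 genes in all passed, and with the mean of probe sets 38 pathway genes. Replicate 1 arrays of the cybrids deviated together, and so did replicates 2 and 3, whether or not their numbers matched. The replicate block nonetheless takes the near duplicates 2 and 3 as separate blocks. With the replicate block 21 members passed (12 higher, 9 lower), 72 pathway genes and 7750 genes in all, and besides WNT5A, RYK and LRP5 the block changed the call of no member.

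Signs turned in 17 members, 46 values in all, 3 of them of genes past the threshold. With the mean of probe sets GSK3B was 0.77 (adjusted p 6.44e-04), CTNNB1 0.62 (adjusted p 0.00363), LEF1 −0.14, SFRP1 −0.35, WNT16 0.040, WNT2B 0.24, WNT4 −0.031 and PRKCA −0.48 (adjusted p 0.0115). Without probe sets that may cross-react GSK3B was 1.92 (adjusted p 3.18e-06), TCF7L2 0.21 (adjusted p 0.0457), CSNK1D 0.42 (adjusted p 0.0163), LGR4 −0.083, TBL1X −0.15 and WNT4 −0.16. Here another probe set takes the gene's place, by construction. For the turns that follow the cause was not tested. With medians made equal AXIN2 was −0.013, SFRP1 −0.045, VIM −0.057, WIF1 −0.093 and WNT4 −0.067. With quantile normalization AXIN2 was −0.073, SFRP1 −0.016 and VIM −0.010. With array weights CTNNB1 was 0.048, DKK1 0.015, WNT10A 0.093 and WNT4 −0.18. With replicates 2 and 3 only, CTNNB1 was 0.059, DKK1 0.020, WNT10A 0.0075 and WNT4 −0.21, and with them averaged WIF1 was −0.0086. Leaving out each array gave AXIN2 −0.20 to 0.52, CTNNB1 −0.096 to 0.078, DKK1 −0.10 to 0.049, GSK3A −0.0054 to 0.43, SFRP1 −0.066 to 0.14, WIF1 −0.060 to 0.12 and WNT10A −0.41 to 0.29. It gave WNT16 −0.15 to 0.096, WNT2 −0.28 to 0.072, WNT4 −0.14 to 0.21, RNF43 −0.40 to 0.051, FZD9 −0.48 to 0.059, VIM −0.0067 to 0.098, WNT2B −0.265 to 0.022 and WNT5B −0.21 to 0.0053. Without detection calls the level over background of the 8 members below the median probe set is unknown.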
